A study of Rattus norvegicus with 6 samples.

Results

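Rat H9C2 cells transfected with FGFR1 siRNA and then given high glucose (siFGFR1+HG) were compared with cells given the same glucose alone (HG). The comparison used the libraries labelled siFGFR1+HG 1 and 2 and HG 1 and 2, which are 4 of the 6 libraries of the series. The 2 remaining libraries, of untreated cells (Ctrl), entered the fit to estimate the spread, and their values are given as a level beside each gene. H9C2 is a single line of myoblasts from the heart of rat embryos, kept in medium with 1 g/L glucose. In siFGFR1+HG the siRNA came before 33 mM glucose for 8 h, and HG cells received 33 mM glucose for 8 h without mention of a transfection. The genotype label of siFGFR1+HG is FGFR1 knockdown, and every library holds total RNA. The genes described are those that reached 1 FPKM in 2 or more of the 6 libraries, which are 12229 of 32623 genes (37.5%).

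FGFR1 is a receptor tyrosine kinase of the cell surface that binds fibroblast growth factors with heparan sulfate as a co-factor. The active receptor phosphorylates the adaptor FRS2, which recruits GRB2 and SOS and so switches on RAS, RAF, MEK and ERK. ERK then induces transcription factors of the ETS and AP-1 families and a set of feedback inhibitors, the DUSP phosphatases and the Sprouty and SPRED proteins, and it drives cells through G1 by way of cyclin D. In heart cells this pathway is known for its part in proliferation and in the response to injury, while NF-kB is the pathway best known for turning on chemokine genes under inflammatory stress.

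No label mentions a control siRNA or a transfection of HG or Ctrl, so the effect of the siRNA on Fgfr1 and that of transfection cannot be told apart. The labels do not tell whether libraries of a group are separate cultures, and the p-values therefore reflect the spread between these libraries alone, possibly a technical one. Count totals were 53339452 and 46960084 in siFGFR1+HG, 57813848 and 52488681 in HG, and 54149827 and 75021470 in Ctrl. The mitochondrial genome took 4.87% to 5.31% of the counts of every library. In each group 37 to 43 genes that reached 5 FPKM were 10-fold or more apart in its 2 libraries. Gene length moved with the comparison. In the longest of 10 equal bins of tested genes by length, the median deviation in log2 CPM from the mean of all libraries was 0.05 and 0.07 in siFGFR1+HG, -0.08 and -0.10 in HG, and 0.06 and 0.05 in Ctrl. The HG libraries stood apart from the other 4 in this respect, and the part of length in the results was not tested beyond an added fit with the trend removed, whose counts are given for some of the lists.

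Expression is given in FPKM, the authors' counts scaled to gene length and library size, and differences as log2 fold change of siFGFR1+HG over HG with its standard error (SE, n = 2 per group). A gene was called when its p from the quasi-likelihood test of edgeR, Benjamini-Hochberg adjusted over all 12229 genes, was under 0.05. By this rule 3661 genes (29.9%) were called, 1722 higher in siFGFR1+HG (14.1%) and 1939 lower (15.9%). Most differences were small. The median absolute log2 fold change of called genes was 0.35, and 168 called genes (1.37%) differed at least 2-fold, 87 of them higher (0.711%) and 81 lower (0.662%). The libraries of siFGFR1+HG and HG did not overlap in 8080 genes (66.1%), higher in 3906 (31.9%) and lower in 4174 (34.1%), so a lack of overlap between 2 and 2 libraries was common. Leaving out siFGFR1+HG 1 gave 2380 calls and leaving out siFGFR1+HG 2 gave 2293.

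**Figure D1:**
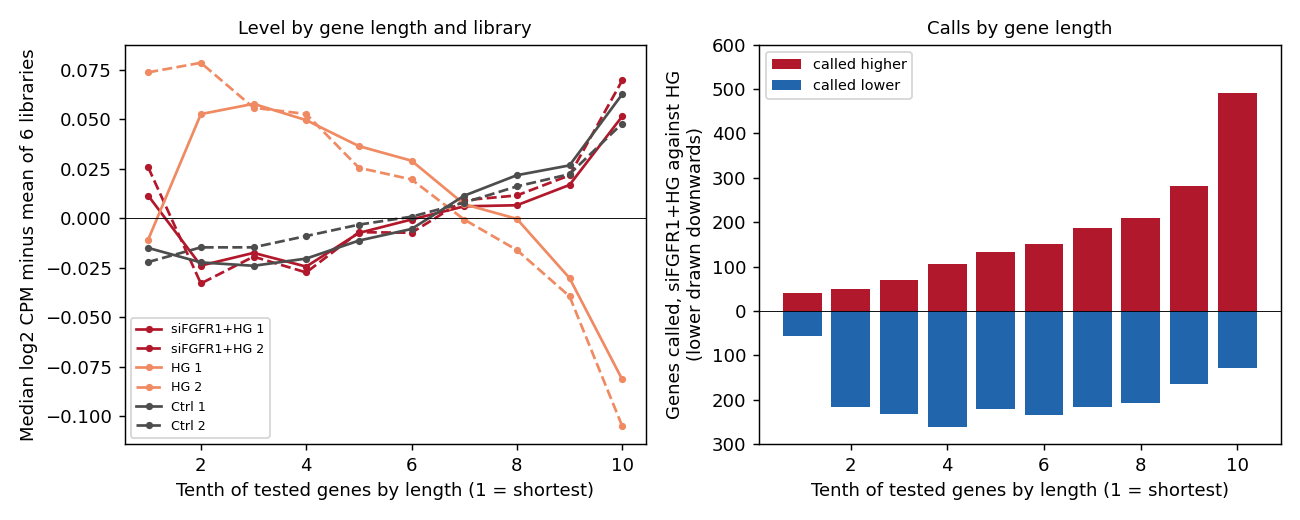
Left, median log2 CPM of tested genes in each of 10 equal bins by length, as the deviation from the mean of the 6 libraries, 1 line per library. Right, number of genes called higher (upwards) and lower (downwards) in siFGFR1+HG against HG in each bin, from 40 higher and 57 lower in the shortest genes to 492 higher and 129 lower in the longest.

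Fgfr1 itself was near 0 throughout, with 4 and 0 counts in siFGFR1+HG, 0 and 0 in HG, and 0 and 4 in Ctrl. In the deposited coordinates the gene spans chromosome 16, positions 71266248 to 71319449, minus strand. No library had more than 4 counts, so the knockdown could not be measured and the labels were not checked by it. Among the other receptors, Fgfr2 had 9.54 and 8.95 FPKM in siFGFR1+HG, 7.03 and 7.16 in HG and 7.48 and 8.11 in Ctrl. Both siFGFR1+HG libraries lay above both HG libraries, and Fgfr2 rose (log2 0.39 ± 0.06). Fgfr3 had 1.75 and 2.17 FPKM in siFGFR1+HG, 1.26 and 1.60 in HG and 1.68 and 1.81 in Ctrl and was not called (log2 0.47 ± 0.19).

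Of 10 tested FGF receptor, ligand and adaptor genes, 3 rose, 1 fell (2 with the length trend removed) and 6 were not called (median log2 0.16, against -0.01 over all tested genes). Fgf18, a secreted FGF with a role in bone and lung growth, had 6.51 and 5.24 FPKM in siFGFR1+HG, 3.12 and 1.80 in HG and 3.78 and 4.21 in Ctrl. The groups did not overlap, but the libraries of HG differed widely, and the rise of Fgf18 (log2 1.26 ± 0.31) was lost without siFGFR1+HG 1, siFGFR1+HG 2 or HG 2. Frs2, the docking protein that carries the signal from FGF receptors, had 16.5 and 17.1 FPKM in siFGFR1+HG, 12.1 and 13.02 in HG and 14.2 and 14.4 in Ctrl and rose (log2 0.43 ± 0.05). Fgf1, which binds every FGF receptor, had 9.57 and 9.14 FPKM in siFGFR1+HG, 11.5 and 11.98 in HG and 10.1 and 10.2 in Ctrl and fell (log2 -0.31 ± 0.05).

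Of 15 tested ERK feedback genes 3 fell and 3 rose, shares near those over all tested genes (15.9% lower and 14.1% higher). Dusp6, the phosphatase that dephosphorylates ERK in the cytoplasm, had 10.03 and 9.43 FPKM in siFGFR1+HG, 15.2 and 14.5 in HG and 18.8 and 17.8 in Ctrl. It was lowest in siFGFR1+HG and highest in Ctrl, with no overlap between siFGFR1+HG and HG, and fell 1.51-fold (log2 -0.60 ± 0.06). Dusp7, a related ERK phosphatase, had 15.4 and 16.02 FPKM in siFGFR1+HG, 21.0 and 21.8 in HG and 19.6 and 19.3 in Ctrl and fell (log2 -0.43 ± 0.05). Spry4, a Sprouty inhibitor of the RAS pathway, had 7.95 and 7.51 FPKM in siFGFR1+HG, 9.43 and 9.47 in HG and 8.16 and 8.91 in Ctrl. Its fall (log2 -0.28 ± 0.06) was lost without siFGFR1+HG 2, HG 1 or HG 2. Dusp1, a nuclear phosphatase that acts mainly on p38 and JNK, went the other way, with 55.0 and 52.4 FPKM in siFGFR1+HG, 44.5 and 44.4 in HG and 28.5 and 26.6 in Ctrl (log2 0.29 ± 0.05).

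The count of 3 rises was 1 without siFGFR1+HG 1, siFGFR1+HG 2 or HG 2, and the median log2 fold change of the list was -0.07. Log2 fold changes in the list ran from -0.60, that of Dusp6, to 0.70, so Dusp1 did not have the largest positive change. Spry2, Spred2 and Dusp5, chosen after their values were seen, were not called. Spry2 had 10.4 and 9.83 FPKM in siFGFR1+HG and 11.8 and 10.54 in HG, and Dusp5 had 3.65 and 3.76 in siFGFR1+HG and 4.01 and 4.49 in HG.

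The PEA3 members of the ETS family had the largest falls among tested ETS factors. Etv4 had 11.8 and 10.8 FPKM in siFGFR1+HG, 21.7 and 22.1 in HG and 20.9 and 21.0 in Ctrl. Both siFGFR1+HG libraries were well below the other 4, and Etv4 fell 1.92-fold (log2 -0.94 ± 0.06). Etv5 had 5.69 and 5.46 FPKM in siFGFR1+HG, 8.20 and 9.24 in HG and 10.96 and 9.79 in Ctrl and fell 1.55-fold (log2 -0.63 ± 0.09). Elk3 fell slightly (log2 -0.26 ± 0.04), while Elk1, a ternary complex factor that ERK phosphorylates, had 17.3 and 17.6 FPKM in siFGFR1+HG, 13.9 and 12.3 in HG and 13.6 and 11.7 in Ctrl. The rise of Elk1 (log2 0.42 ± 0.09) was lost without siFGFR1+HG 1, siFGFR1+HG 2 or HG 2 and with limma on log2(FPKM + 0.1). Of 13 tested ETS factors, 4 fell, 1 rose and 8 were not called (median log2 -0.05).

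Immediate-early genes moved in both directions. Egr1, a zinc-finger factor that growth factors induce within minutes, had 39.2 and 38.8 FPKM in siFGFR1+HG, 16.5 and 17.0 in HG and 29.5 and 31.0 in Ctrl. Its siFGFR1+HG libraries were the highest, its HG libraries the lowest and its Ctrl libraries in between, and it rose 2.35-fold (log2 1.23 ± 0.04, adjusted p = 7.31e-05). Fosl1, the AP-1 subunit FRA-1, had 11.5 and 11.9 FPKM in siFGFR1+HG, 16.7 and 20.3 in HG and 20.4 and 22.6 in Ctrl and fell (log2 -0.64 ± 0.10). Ier3, a stress-response gene and NF-kB target, had 25.2 and 28.3 FPKM in siFGFR1+HG, 46.3 and 52.1 in HG and 25.1 and 25.3 in Ctrl and fell 1.82-fold (log2 -0.87 ± 0.08). Ier5 fell by less, with 51.9 and 50.9 FPKM in siFGFR1+HG, 61.9 and 65.5 in HG and 58.9 and 58.0 in Ctrl (log2 -0.30 ± 0.04).

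Of 17 tested members, 6 rose (1 without siFGFR1+HG 1, and 3 without HG 1) and 5 fell (3 without HG 1). The median log2 fold change was 0.05.

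Kruppel-like factors, zinc-finger regulators of growth arrest and of vascular and metabolic genes, were mostly higher. Klf2, known from endothelium under flow, had 27.4 and 24.6 FPKM in siFGFR1+HG, 12.1 and 10.2 in HG and 13.3 and 12.5 in Ctrl and rose 2.35-fold (log2 1.23 ± 0.12). Klf4, a reprogramming factor that also restrains proliferation, had 13.5 and 14.4 FPKM in siFGFR1+HG, 8.19 and 8.38 in HG and 7.89 and 7.81 in Ctrl and rose 1.70-fold (log2 0.77 ± 0.07). Klf6 had 11.2 and 12.6 FPKM in siFGFR1+HG, 7.57 and 8.16 in HG and 10.4 and 10.6 in Ctrl (log2 0.61 ± 0.08). Klf9 had 7.37 and 6.62 FPKM in siFGFR1+HG, 4.06 and 4.61 in HG and 5.94 and 5.25 in Ctrl (log2 0.70 ± 0.13). In each of these 4 genes the HG libraries lay below the siFGFR1+HG libraries without overlap. Of 13 tested members, 8 rose and 1 fell, with a median log2 of 0.61, and the count of 8 became 5 without siFGFR1+HG 1, siFGFR1+HG 2 or HG 1, while that of 1 became 0 without HG 1.

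Chemokine genes were among those with the largest falls. Ccl2, which attracts monocytes, had 0.463 and 0.790 FPKM in siFGFR1+HG, 43.0 and 42.8 in HG and 1.22 and 1.11 in Ctrl. The siFGFR1+HG libraries were close to the Ctrl libraries in level and far below the HG libraries, and Ccl2 was 66.0-fold lower (log2 -6.04 ± 0.26). Ccl7, another monocyte chemokine, had 1.28 and 0.671 FPKM in siFGFR1+HG, 36.4 and 36.6 in HG and 1.55 and 1.41 in Ctrl and was 36.6-fold lower (log2 -5.20 ± 0.29). In the deposited coordinates Ccl2 spans positions 69412017 to 69413870 and Ccl7 positions 69423086 to 69424979 of chromosome 10, both on the plus strand. Cxcl1, which attracts neutrophils, had 3.76 and 4.4999 FPKM in siFGFR1+HG, 70.4 and 71.3 in HG and 5.36 and 3.74 in Ctrl and was 16.9-fold lower (log2 -4.08 ± 0.19).

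Cxcl16, a membrane-bound chemokine and scavenger receptor, had 5.18 and 5.91 FPKM in siFGFR1+HG, 16.1 and 16.7 in HG and 6.51 and 5.57 in Ctrl and fell 2.93-fold (log2 -1.55 ± 0.13). Csf1, the growth factor of macrophages, had 43.4 and 43.4 FPKM in siFGFR1+HG, 76.9 and 77.3 in HG and 53.1 and 56.1 in Ctrl and fell 1.76-fold (log2 -0.82 ± 0.04). Csf1 was thus abundant in all libraries, whereas Ccl2 and Ccl7 reached 2 FPKM only in HG. Of 9 tested chemokine and cytokine genes, 7 fell and 0 rose (median log2 -0.82), 5 or 6 with any 1 library left out. The 2 that were not called are Il6 and Clcf1, named here after their values were seen. Il6, a cytokine of the acute phase, had 2.08 and 3.47 FPKM in siFGFR1+HG, 4.59 and 3.97 in HG and 3.39 and 3.30 in Ctrl (log2 -0.61 ± 0.27). Clcf1 had 11.2 and 8.85 FPKM in siFGFR1+HG, 11.2 and 10.1 in HG and 8.31 and 8.42 in Ctrl (log2 -0.07 ± 0.12). The cytokine genes Il1b and Ccl5 were at 0 counts in all 6 libraries. The adjusted p-values of Ccl2, Ccl7, Cxcl1, Cxcl16 and Csf1 were 0.000137 to 0.000610.

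Of 24 tested NF-kB factors and inhibitors, 14 fell. Zc3h12a, which encodes an RNase that degrades inflammatory transcripts, had 6.93 and 5.69 FPKM in siFGFR1+HG, 38.6 and 38.5 in HG and 7.58 and 7.95 in Ctrl and fell 6.04-fold (log2 -2.60 ± 0.09). Nfkbia, the inhibitor IkB-alpha that NF-kB itself induces, had 11.9 and 10.1 FPKM in siFGFR1+HG, 39.8 and 37.9 in HG and 12.01 and 12.3 in Ctrl and fell 3.51-fold (log2 -1.81 ± 0.09). In both genes the siFGFR1+HG and Ctrl libraries were near each other and the HG libraries were several times higher. Relb, a subunit of the noncanonical pathway, had 3.11 and 3.06 FPKM in siFGFR1+HG, 7.75 and 6.69 in HG and 3.13 and 3.72 in Ctrl and fell 2.32-fold (log2 -1.21 ± 0.15).

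Traf2, an adaptor of TNF receptors, had 11.8 and 11.4 FPKM in siFGFR1+HG, 18.4 and 19.8 in HG and 15.1 and 14.4 in Ctrl (log2 -0.70 ± 0.06). Tnip1, a partner of the deubiquitinase A20, had 27.2 and 25.5 FPKM in siFGFR1+HG, 38.4 and 39.4 in HG and 23.4 and 24.5 in Ctrl (log2 -0.55 ± 0.05). A further 3 members were chosen after their values were seen. Nfkbiz, a nuclear IkB protein, had 0.463 and 0.7495 FPKM in siFGFR1+HG, 3.06 and 2.94 in HG and 0.502 and 0.567 in Ctrl (log2 -2.29 ± 0.25). Nfkbiz reached 1 FPKM only in HG, so it was tested only through the group where it was high, and its fall is partly built in. Tnfaip3, which encodes A20, had 2.44 and 3.43 FPKM in siFGFR1+HG, 6.78 and 5.53 in HG and 4.14 and 4.77 in Ctrl (log2 -1.05 ± 0.20). Nfkb2, the p100 precursor, had 27.4 and 25.7 FPKM in siFGFR1+HG, 35.7 and 35.7 in HG and 25.3 and 25.7 in Ctrl (log2 -0.41 ± 0.04), and all 3 fell.

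The 14 falls in the list (11 to 14 with any 1 library left out) stood beside 2 rises and 8 members not called, with a median log2 of -0.41. The 2 rises, of Tnip2 and Ikbke, singled out after their values were seen, rested on few libraries, since 0 members rose without siFGFR1+HG 1, siFGFR1+HG 2 or HG 2, and 1 without HG 1 or either Ctrl library.

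The promoters of tested list members were searched for an NF-kB site, the letters GGG, any 2 bases, then TTTCC, on both strands within 250 bases before the start, in RefSeq promoters of the GRCr8 assembly. The letters were present in 1.27% of 24206 promoters with 1 entry per symbol. Among the tested NF-kB factors and inhibitors 6 of 19 promoters held them (31.6%), and among those called lower 5 of 12 (41.7%). Both counts include Nfkbiz, which was tested only through its level in HG. Among tested chemokines and cytokines 2 of 5 promoters did (40%), namely Cxcl1 and Il6, which was not called, and among those called lower 1 of 4 (25%). The 150 bases before the start are shown for 4 genes whose values are given above, with the matched letters in capitals, to let the sites be compared. A match is a description of letters only. Their positions are chr14:17479322-17479471 (minus strand) for Cxcl1, chr6:78597073-78597222 (minus strand) for Nfkbia, chr1:15543980-15544129 (minus strand) for Tnfaip3 and chr1:255108224-255108373 (plus strand) for Nfkb2.
Cxcl1: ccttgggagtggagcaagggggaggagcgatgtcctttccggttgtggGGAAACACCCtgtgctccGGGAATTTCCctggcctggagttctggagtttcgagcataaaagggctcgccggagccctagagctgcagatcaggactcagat
Nfkbia: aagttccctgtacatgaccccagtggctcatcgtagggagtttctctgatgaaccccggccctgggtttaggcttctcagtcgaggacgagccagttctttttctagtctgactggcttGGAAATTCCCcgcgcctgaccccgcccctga
Tnfaip3: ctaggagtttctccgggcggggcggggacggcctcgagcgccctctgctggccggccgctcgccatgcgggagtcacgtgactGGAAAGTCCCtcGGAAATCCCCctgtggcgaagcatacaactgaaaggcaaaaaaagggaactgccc
Nfkb2: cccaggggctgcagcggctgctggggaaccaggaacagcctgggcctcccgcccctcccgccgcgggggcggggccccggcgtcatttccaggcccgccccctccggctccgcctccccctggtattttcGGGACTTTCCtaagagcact
Cxcl1 and Tnfaip3 each hold 2 matches that do not overlap, starting 102 and 84 bases before the start in Cxcl1 and 67 and 55 in Tnfaip3. Nfkbia and Nfkb2 hold 1 match each in this window, at 31 and 20 bases.

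**Figure D2:**
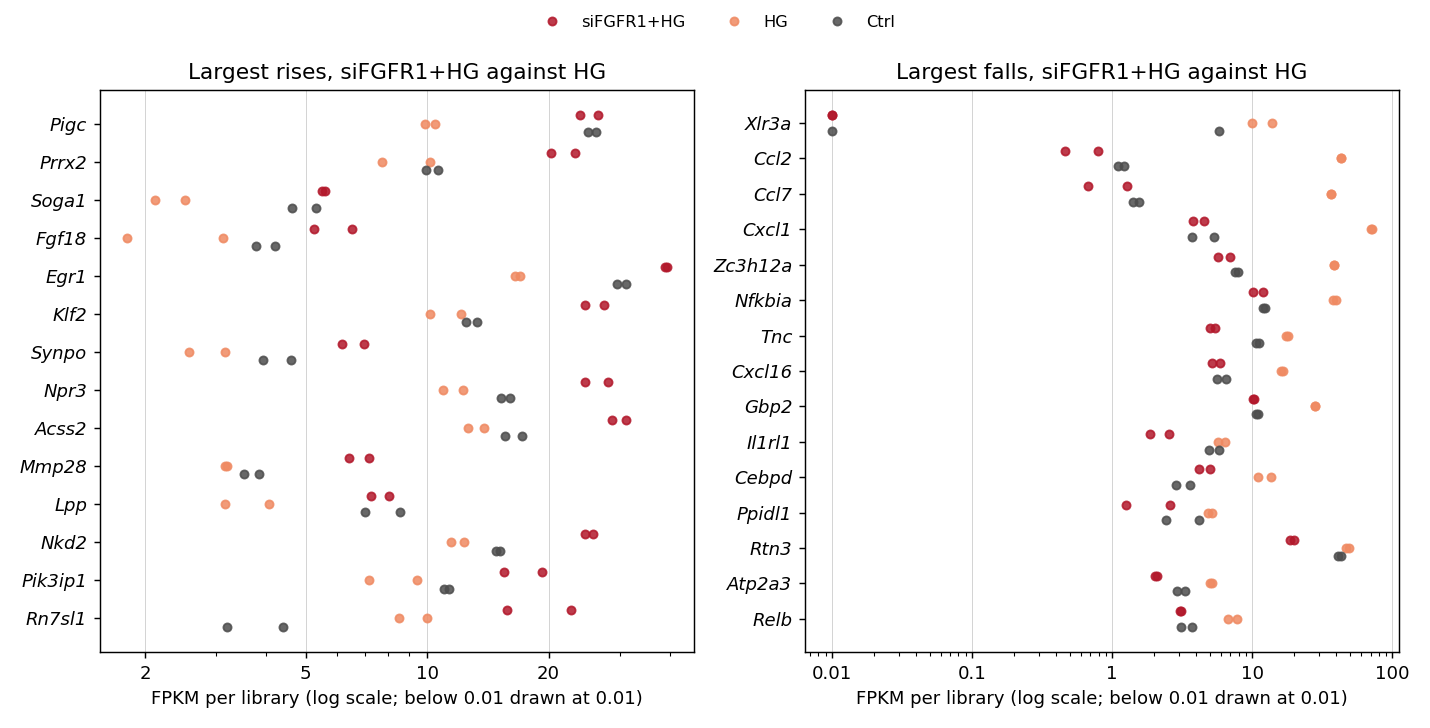
FPKM per library on log axes for 14 of the genes with the largest rises (left) and the 15 with the largest falls (right) in siFGFR1+HG against HG, chosen by fitted fold change; each point is a library. Ccl2, Ccl7 and Cxcl1 sit between 36.4 and 71.3 FPKM in HG and at 5.36 FPKM or less in siFGFR1+HG and Ctrl.

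Antigen presentation genes, which load peptides onto MHC class I, were lower in 8 of 13 tested. Tapbp, the tapasin that bridges MHC class I to the peptide transporter, had 21.2 and 20.3 FPKM in siFGFR1+HG, 41.4 and 41.1 in HG and 18.1 and 19.3 in Ctrl and fell 1.97-fold (log2 -0.98 ± 0.05). The immunoproteasome subunit gene Psmb10 had 24.5 and 22.9 FPKM in siFGFR1+HG, 47.3 and 48.3 in HG and 22.9 and 27.7 in Ctrl (log2 -0.997 ± 0.10). The proteasome activator genes Psme2 and Psme1 also fell. Psme2 had 33.01 and 34.5 FPKM in siFGFR1+HG, 57.6 and 62.9 in HG and 30.9 and 34.9 in Ctrl (log2 -0.82 ± 0.07). Psme1 had 52.2 and 48.8 FPKM in siFGFR1+HG, 70.7 and 73.9 in HG and 57.0 and 54.9 in Ctrl (log2 -0.50 ± 0.05). In these 4 genes the siFGFR1+HG libraries lay below the HG libraries without overlap. Of 13 tested members, 8 fell and 0 rose (median log2 -0.50), and 7 to 9 fell with any 1 library left out.

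Interferon-induced genes did not move together. Gbp2, a guanylate-binding GTPase, had 10.2 and 10.3 FPKM in siFGFR1+HG, 28.2 and 27.9 in HG and 11.1 and 10.6 in Ctrl and fell 2.71-fold (log2 -1.44 ± 0.05). Parp14 also fell, at 3.15 and 2.92 FPKM in siFGFR1+HG and 4.83 and 4.52 in HG (log2 -0.61 ± 0.07). Stat2, a subunit of an interferon-activated transcription factor, rose, with 26.3 and 24.1 FPKM in siFGFR1+HG, 19.1 and 18.7 in HG and 19.996 and 19.8 in Ctrl (log2 0.43 ± 0.05). Of 20 tested members, 4 rose, 5 fell (3 without siFGFR1+HG 1 or HG 1) and 11 were not called (median log2 -0.20).

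Sensors of double-stranded RNA and genes of RNA interference were mostly not called. Eif2ak2, the kinase PKR, had 34.1 and 34.3 FPKM in siFGFR1+HG, 41.6 and 44.2 in HG and 41.2 and 42.0 in Ctrl and fell (log2 -0.31 ± 0.04). Ago1, an Argonaute protein that binds small RNAs, had 6.90 and 6.71 FPKM in siFGFR1+HG, 5.03 and 4.54 in HG and 6.07 and 5.90 in Ctrl and rose (log2 0.52 ± 0.10). Dgcr8, a partner of Drosha in microRNA processing, had 10.1 and 10.9 FPKM in siFGFR1+HG, 12.1 and 13.1 in HG and 12.4 and 12.6 in Ctrl. Its fall (log2 -0.25 ± 0.06) was lost without siFGFR1+HG 1 or HG 2, with only the 4 libraries of the comparison, and with limma on log2(FPKM + 1) or log2(FPKM + 0.1). Mavs, the adaptor of RIG-I, was not called, at 8.84 and 8.05 FPKM in siFGFR1+HG and 6.98 and 7.46 in HG (log2 0.24 ± 0.08). Of 17 tested members 1 rose, 2 fell and 14 were not called, with a median log2 of -0.05. Neither share was above that over all tested genes (14.1% higher and 15.9% lower). With the length trend removed 4 members fell.

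Acute-phase and adhesion genes were mixed. Cebpd, a C/EBP factor of acute inflammation, had 4.17 and 4.98 FPKM in siFGFR1+HG, 13.5 and 11.1 in HG and 2.85 and 3.60 in Ctrl and fell 2.66-fold (log2 -1.41 ± 0.19). Cebpb, its relative, had 14.7 and 16.03 FPKM in siFGFR1+HG, 25.6 and 24.9 in HG and 12.3 and 12.9 in Ctrl and fell (log2 -0.71 ± 0.08). The complement protease genes C1s (log2 -0.94 ± 0.11) and C1r (log2 -0.33 ± 0.03) fell, and Il6st, the shared signal transducer gp130, rose, at 66.5 and 68.6 FPKM in siFGFR1+HG and 49.4 and 48.0 in HG (log2 0.48 ± 0.04). In the complement and acute-phase list 3 of 12 rose and 4 fell (median log2 -0.13). Icam1, which leukocytes bind, had 35.0 and 33.1 FPKM in siFGFR1+HG, 54.6 and 54.3 in HG and 26.2 and 25.2 in Ctrl and fell (log2 -0.66 ± 0.04). Itga11, a collagen-binding integrin, had 49.5 and 48.4 FPKM in siFGFR1+HG, 30.0 and 29.2 in HG and 23.0 and 19.8 in Ctrl and rose (log2 0.74 ± 0.07). Il1rl1, the receptor of IL-33, had 2.56 and 1.85 FPKM in siFGFR1+HG, 6.36 and 5.75 in HG and 4.91 and 5.84 in Ctrl and fell 2.71-fold (log2 -1.44 ± 0.18). Of 18 tested adhesion molecules 6 rose (2 without siFGFR1+HG 2) and 4 fell.

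DNA replication genes fell almost throughout, and here the siFGFR1+HG libraries lay below both HG and Ctrl. Mcm5, a subunit of the replicative helicase, had 33.9 and 32.6 FPKM in siFGFR1+HG, 67.7 and 67.6 in HG and 72.9 and 75.1 in Ctrl and fell 2.02-fold (log2 -1.01 ± 0.04, adjusted p = 7.31e-05). Mcm3 had 23.3 and 23.5 FPKM in siFGFR1+HG, 44.8 and 45.5 in HG and 48.0 and 48.8 in Ctrl (log2 -0.94 ± 0.04), Mcm7 had 57.7 and 57.0 FPKM in siFGFR1+HG, 108 and 104 in HG and 109.6 and 114 in Ctrl (log2 -0.87 ± 0.04). Mcm2 had 45.6 and 44.5 FPKM in siFGFR1+HG, 66.9 and 69.0 in HG and 77.7 and 77.7 in Ctrl (log2 -0.58 ± 0.03). All 4 helicase genes fell, and in each the 2 siFGFR1+HG libraries were close together and below the other 4. Of 48 tested members, 42 fell (36 to 40 with any 1 library left out), 0 rose and 6 were not called, with a median log2 of -0.68. The largest fall was that of Cdc6, a loader of the helicase chosen after its value was seen, with 6.68 and 6.90 FPKM in siFGFR1+HG, 14.4 and 16.04 in HG and 15.2 and 15.98 in Ctrl (log2 -1.15 ± 0.07). The summed level of the list was 2206 and 2189 CPM in siFGFR1+HG, 3535 and 3568 in HG, and 3856 and 3912 in Ctrl. In bulk RNA fewer cells in S phase and less of this RNA per cell cannot be told apart.

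Of 50 tested mitotic genes 47 fell. Mki67, the proliferation marker, had 32.0 and 31.7 FPKM in siFGFR1+HG, 46.5 and 45.2 in HG and 63.8 and 63.7 in Ctrl and fell 1.43-fold (log2 -0.51 ± 0.03). Mybl2, the B-MYB factor that activates late cell-cycle genes, had 20.7 and 18.7 FPKM in siFGFR1+HG, 36.8 and 37.8 in HG and 38.8 and 40.5 in Ctrl (log2 -0.91 ± 0.06). Ncaph, a condensin subunit, had 15.5 and 16.5 FPKM in siFGFR1+HG, 27.4 and 28.4 in HG and 33.4 and 32.6 in Ctrl (log2 -0.79 ± 0.05). Ccna2, cyclin A2, had 19.6 and 21.1 FPKM in siFGFR1+HG, 34.6 and 35.1 in HG and 39.3 and 39.8 in Ctrl (log2 -0.76 ± 0.05). Each of these was highest in Ctrl, next in HG and lowest in siFGFR1+HG. The 47 falls (43 to 46 with any 1 library left out) stood beside 0 rises, with a median log2 of -0.46.

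Genes that control entry into S phase were lower in part. Ccnd1, cyclin D1, the G1 cyclin that ERK signalling induces, had 106 and 104 FPKM in siFGFR1+HG, 139 and 144 in HG and 148 and 150.3 in Ctrl and fell 1.34-fold (log2 -0.42 ± 0.03). Ccne1 and Ccne2, the E cyclins, fell as well. Ccne1 had 28.7 and 30.4 FPKM in siFGFR1+HG, 48.2 and 47.7 in HG and 44.3 and 48.7 in Ctrl (log2 -0.68 ± 0.06). Ccne2 had 4.29 and 4.25 FPKM in siFGFR1+HG, 7.997 and 7.98 in HG and 8.66 and 9.55 in Ctrl (log2 -0.89 ± 0.08). Ccnd2, cyclin D2, rose, with 118 and 119 FPKM in siFGFR1+HG, 88.6 and 82.6 in HG and 86.7 and 83.2 in Ctrl (log2 0.48 ± 0.05). Of 26 tested members 13 fell (10 to 12 with any 1 library left out) and 4 rose (2 without HG 1), with a median log2 of -0.26. Among the 4 that rose, Rb1 and Rbl2 are pocket proteins that restrain E2F and Cdkn2b encodes the inhibitor p15. These 3 were singled out after their values were seen. Cdkn2b had 6.85 and 3.14 FPKM in siFGFR1+HG, 1.71 and 1.53 in HG and 2.31 and 2.49 in Ctrl (log2 1.64 ± 0.33), so its 2 siFGFR1+HG libraries lay far apart, though both were above the other 4. Rb1 had 5.86 and 5.41 FPKM in siFGFR1+HG, 4.44 and 4.31 in HG and 5.55 and 5.46 in Ctrl (log2 0.38 ± 0.09). Rbl2 had 12.4 and 12.5 FPKM in siFGFR1+HG, 9.73 and 9.51 in HG and 10.6 and 9.57 in Ctrl (log2 0.39 ± 0.06).

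The E2F letters TTTNNCGC were searched in the same way, on both strands of the 250 bases before the start. They were found in 4.45% of all promoters and in 12 of 42 promoters of tested replication genes (28.6%), or 10 of the 37 that fell (27%). The letters CCAAT, a box typical of mitotic promoters, were found in 34.4% of all promoters and in 30 of 42 of tested mitotic genes (71.4%). The 150 bases before the start are shown for 3 helicase genes as examples, with E2F matches in capitals. Mcm5 had 3 matches, of which those further upstream than the bases shown are not printed. They lie at chr19:13488663-13488812 (plus strand) for Mcm5, chr4:122918095-122918244 (minus strand) for Mcm2 and chr13:42404353-42404502 (minus strand) for Mcm6.
Mcm5: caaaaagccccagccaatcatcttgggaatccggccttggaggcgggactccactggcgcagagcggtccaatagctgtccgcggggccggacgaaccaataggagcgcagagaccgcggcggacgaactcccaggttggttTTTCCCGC
Mcm2: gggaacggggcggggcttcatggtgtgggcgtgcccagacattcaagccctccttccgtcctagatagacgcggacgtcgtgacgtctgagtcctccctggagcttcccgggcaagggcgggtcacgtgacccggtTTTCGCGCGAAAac
Mcm6: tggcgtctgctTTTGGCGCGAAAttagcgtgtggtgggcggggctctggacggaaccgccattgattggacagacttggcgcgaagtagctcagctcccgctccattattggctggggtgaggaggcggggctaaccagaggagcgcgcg
In Mcm2 and Mcm6 the 2 matches overlap on opposite strands and print as a single run of capitals. Mcm6, chosen after its value was seen, had 48.1 and 50.8 FPKM in siFGFR1+HG, 91.5 and 86.8 in HG and 95.8 and 101 in Ctrl and fell (log2 -0.84 ± 0.05).

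**Figure D3:**
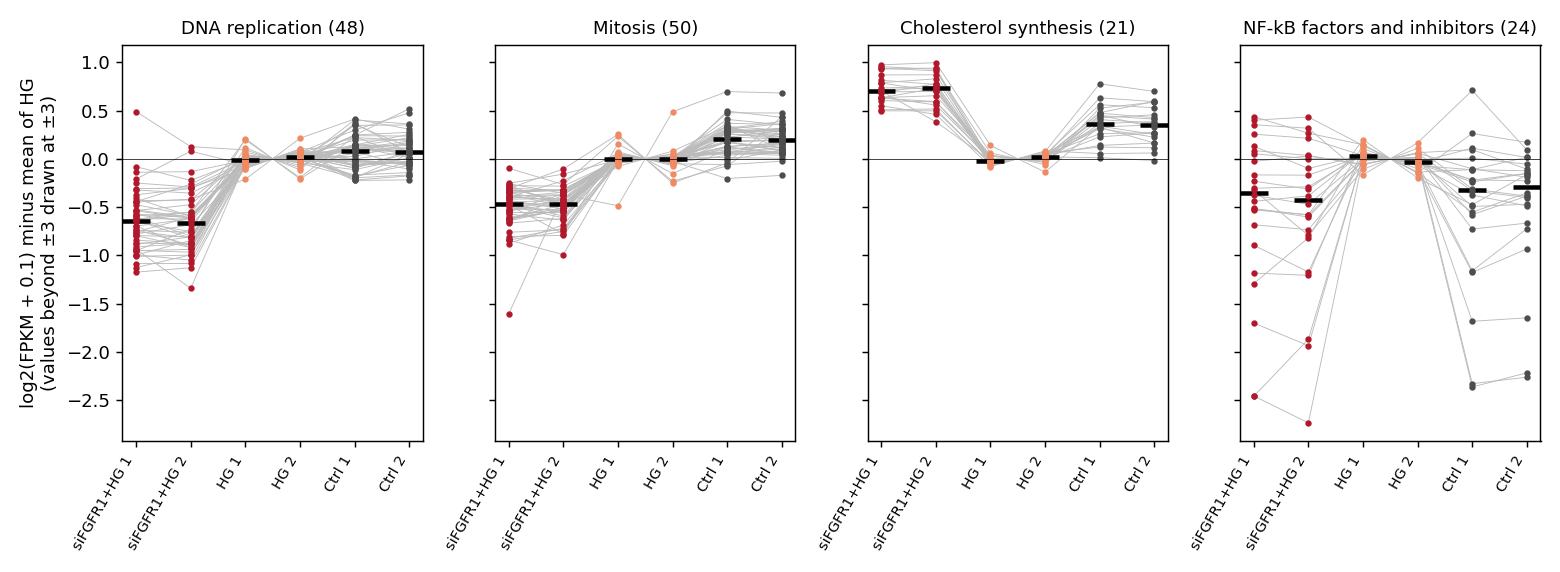
Per-library level of each tested member of 4 lists, as log2(FPKM + 0.1) minus the mean of the HG libraries; points are genes, thin lines join a gene across libraries and thick bars are medians. Replication and mitotic genes are lower in siFGFR1+HG than in HG and Ctrl, cholesterol genes are higher, and NF-kB genes have medians near those of Ctrl.

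Genes that feed and package new DNA were lower as well, with 20 of 31 and 16 of 21 falling. Rrm1 and Rrm2, the subunits of ribonucleotide reductase, fell. Rrm2 had 74.6 and 72.4 FPKM in siFGFR1+HG, 122 and 123 in HG and 141 and 131 in Ctrl (log2 -0.72 ± 0.05). Rrm1 had 68.9 and 69.4 FPKM in siFGFR1+HG, 100.4 and 101 in HG and 116 and 118 in Ctrl (log2 -0.53 ± 0.03). Tk1, thymidine kinase (log2 -0.50 ± 0.04), and Mthfd1, a folate enzyme (log2 -0.58 ± 0.05), fell as well. Of 31 tested genes of nucleotide synthesis 20 fell and 1 rose (0 without siFGFR1+HG 2), with a median log2 of -0.31. Among histones and chromatin assembly genes 16 of 21 fell and 0 rose (median log2 -0.52). Chaf1a, a subunit of the histone chaperone CAF-1, had 18.9 and 18.7 FPKM in siFGFR1+HG, 32.8 and 34.0 in HG and 36.7 and 35.5 in Ctrl (log2 -0.82 ± 0.04). Dnmt1, the maintenance DNA methyltransferase, had 19.2 and 20.005 FPKM in siFGFR1+HG, 29.8 and 29.3 in HG and 36.5 and 37.3 in Ctrl (log2 -0.58 ± 0.04).

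DNA repair genes fell in part. Exo1, a 5' exonuclease of mismatch repair, had 7.17 and 8.26 FPKM in siFGFR1+HG, 15.2 and 15.9 in HG and 16.7 and 18.4 in Ctrl and fell 1.996-fold (log2 -0.997 ± 0.09). Of 43 tested members 27 fell (17 without HG 1) and 0 rose, with a median log2 of -0.34.

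Sesn3, a stress-induced inhibitor of mTORC1 and a FOXO target, had 19.7 and 19.8 FPKM in siFGFR1+HG, 9.68 and 9.84 in HG and 12.8 and 10.8 in Ctrl and rose 2.04-fold (log2 1.03 ± 0.08). In the list of BCL2 family and caspase genes 5 of 25 fell and 3 rose (1 without any 1 of the siFGFR1+HG or HG libraries). These shares were near those over all tested genes (15.9% lower and 14.1% higher). Bmf, a pro-apoptotic BH3-only gene, had 8.05 and 7.92 FPKM in siFGFR1+HG, 4.91 and 4.56 in HG and 7.68 and 7.48 in Ctrl and rose 1.70-fold (log2 0.76 ± 0.10), and Cycs, cytochrome c, fell (log2 -0.38 ± 0.03).

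Every tested gene of cholesterol synthesis rose. All 21 members were called higher in siFGFR1+HG, also with any 1 library left out and under each of the 18 alternatives, and their log2 fold changes ran from 0.51 to 0.99 with a median of 0.74. Cyp51, the lanosterol demethylase, had 180.0 and 180.2 FPKM in siFGFR1+HG, 98.2 and 98.9 in HG and 134 and 131 in Ctrl and rose 1.85-fold (log2 0.88 ± 0.03, adjusted p = 7.31e-05). Hmgcs1, which makes HMG-CoA, had 149.9 and 154 FPKM in siFGFR1+HG, 85.3 and 88.3 in HG and 134 and 131 in Ctrl (log2 0.82 ± 0.04). Mvd, mevalonate diphosphate decarboxylase, had 98.4 and 95.4 FPKM in siFGFR1+HG, 55.3 and 56.5 in HG and 75.1 and 76.7 in Ctrl (log2 0.81 ± 0.04). Nsdhl, a C4-demethylation enzyme, had 54.6 and 55.1 FPKM in siFGFR1+HG, 28.2 and 29.1 in HG and 35.6 and 33.5 in Ctrl (log2 0.95 ± 0.04). In each of these 4 genes siFGFR1+HG was the highest group, HG the lowest and Ctrl in between. The list summed to 4615 and 4662 CPM in siFGFR1+HG, 2754 and 2795 in HG, and 3690 and 3638 in Ctrl.

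Genes of sterol uptake and SREBP regulation were higher in part. Insig1, which retains SREBP in the endoplasmic reticulum, had 107 and 102 FPKM in siFGFR1+HG, 59.1 and 56.6 in HG and 91.2 and 91.7 in Ctrl and rose 1.82-fold (log2 0.86 ± 0.04). Srebf2, the sterol-regulated SREBP, had 50.6 and 51.0 FPKM in siFGFR1+HG, 34.4 and 35.2 in HG and 43.5 and 43.1 in Ctrl (log2 0.56 ± 0.03). Of 23 tested members 13 rose (7 without siFGFR1+HG 1 or HG 2) and 2 fell (1 without siFGFR1+HG 1), with a median log2 of 0.21. The sterol element letters TCACNCCAC were found in 0.958% of all promoters and in 0 of 16 promoters of tested cholesterol genes, which says only that these exact letters are not in the 250 bases searched.

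Fatty acid synthesis genes rose in 14 of 21 tested. Acss2, which makes acetyl-CoA from acetate, had 31.1 and 28.7 FPKM in siFGFR1+HG, 13.8 and 12.6 in HG and 17.2 and 15.6 in Ctrl and rose 2.28-fold (log2 1.19 ± 0.08). Scd and Scd2, desaturases that make monounsaturated fatty acids, rose. Scd had 59.4 and 63.5 FPKM in siFGFR1+HG, 32.9 and 31.8 in HG and 45.0 and 46.9 in Ctrl (log2 0.94 ± 0.05). Scd2 had 539 and 529 FPKM in siFGFR1+HG, 326 and 324 in HG and 409 and 397 in Ctrl (log2 0.73 ± 0.02). Acly, which makes cytosolic acetyl-CoA from citrate, had 132 and 131 FPKM in siFGFR1+HG, 85.4 and 84.3 in HG and 104.7 and 103 in Ctrl (log2 0.65 ± 0.03). Fasn, fatty acid synthase, had 73.7 and 73.5 FPKM in siFGFR1+HG, 50.2 and 50.8 in HG and 74.2 and 75.5 in Ctrl (log2 0.56 ± 0.03). In Fasn the siFGFR1+HG and Ctrl libraries were at about the same level, above HG. Of 21 tested members 14 rose (10 to 14 with any 1 library left out) and 0 fell, with a median log2 of 0.28.

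Fatty acid oxidation genes were mostly not called. Of 22 tested members 1 rose, 3 fell and 18 were not called (median log2 -0.01). Neither share exceeded that over all tested genes (14.1% higher and 15.9% lower). Angptl4, a lipase inhibitor induced by PPARs, had 0.248 and 0.266 FPKM in siFGFR1+HG, 1.13 and 1.26 in HG and 0.414 and 0.342 in Ctrl and fell 4.54-fold (log2 -2.18 ± 0.28). Angptl4 reached 1 FPKM only in HG, so it was tested only through the group where it was high, and its fall is partly built in. Acadl, a mitochondrial acyl-CoA dehydrogenase, had 40.7 and 44.1 FPKM in siFGFR1+HG, 51.4 and 53.9 in HG and 51.0 and 50.9 in Ctrl and fell (log2 -0.30 ± 0.06). Ppard, a nuclear receptor for fatty acids, had 8.81 and 8.15 FPKM in siFGFR1+HG, 6.58 and 6.55 in HG and 7.30 and 6.60 in Ctrl and rose (log2 0.38 ± 0.07), a call that was lost without siFGFR1+HG 1.

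Glycolysis genes had a median difference near 0. Ldha, lactate dehydrogenase A, had 566 and 573 FPKM in siFGFR1+HG, 724 and 713 in HG and 642 and 642 in Ctrl and fell (log2 -0.32 ± 0.02). Eno1, enolase, had 687 and 674 FPKM in siFGFR1+HG, 856 and 822 in HG and 788 and 791 in Ctrl (log2 -0.29 ± 0.03), and Pgam1, phosphoglycerate mutase, fell to a like extent (log2 -0.29 ± 0.03). Of 30 tested glycolysis genes 9 fell (7 to 9 with any 1 library left out), 5 rose (1 without either siFGFR1+HG library, 3 without HG 1 and 2 without HG 2) and 16 were not called, with a median log2 of -0.04. Txnip, the glucose-induced thioredoxin inhibitor, chosen after its values were seen, had 35.8 and 34.5 FPKM in siFGFR1+HG, 34.8 and 35.3 in HG and 14.8 and 17.5 in Ctrl and was not called (log2 0.02 ± 0.07). Its siFGFR1+HG and HG libraries were alike and about 2-fold above Ctrl.

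Among NADPH oxidases and glucose-responsive genes, Nox4, an NADPH oxidase that makes hydrogen peroxide, had 10.6 and 10.3 FPKM in siFGFR1+HG, 6.64 and 5.91 in HG and 8.33 and 8.82 in Ctrl and rose 1.68-fold (log2 0.75 ± 0.07). Akr1b1, the aldose reductase of the polyol pathway, had 260.5 and 253 FPKM in siFGFR1+HG, 390.3 and 377 in HG and 284 and 303 in Ctrl and fell 1.48-fold (log2 -0.56 ± 0.04). Slc6a6, the taurine transporter, had 75.6 and 75.1 FPKM in siFGFR1+HG, 58.7 and 57.0 in HG and 68.0 and 65.7 in Ctrl and rose (log2 0.39 ± 0.04). Of 25 tested members 9 rose and 3 fell (median log2 0.16). Sod2, the mitochondrial superoxide dismutase, had 20.04 and 18.9 FPKM in siFGFR1+HG, 39.9 and 41.9 in HG and 18.4 and 19.2 in Ctrl and fell 2.08-fold (log2 -1.06 ± 0.05). Prdx5, a peroxiredoxin, had 243 and 236 FPKM in siFGFR1+HG, 324 and 328 in HG and 258 and 258 in Ctrl (log2 -0.43 ± 0.03). Gpx8, a peroxidase of the endoplasmic reticulum, had 115 and 114 FPKM in siFGFR1+HG, 162 and 162 in HG and 118 and 126 in Ctrl (log2 -0.49 ± 0.04). Of 37 tested oxidative stress and NRF2 target genes 10 fell (5 without siFGFR1+HG 2), 2 rose (1 without siFGFR1+HG 1, HG 1 or HG 2) and 25 were not called, with a median log2 of -0.03.

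Hypoxia targets had 3 rises and 2 falls among 18 tested genes, shares near those over all tested genes (14.1% higher and 15.9% lower). Vegfa, the endothelial growth factor, had 35.4 and 26.2 FPKM in siFGFR1+HG, 19.3 and 17.6 in HG and 28.7 and 29.0 in Ctrl and rose (log2 0.75 ± 0.13). Ca9, a carbonic anhydrase, had 8.26 and 7.22 FPKM in siFGFR1+HG, 4.80 and 4.06 in HG and 5.45 and 5.50 in Ctrl and rose (log2 0.82 ± 0.13). Adm, adrenomedullin, fell (log2 -0.81 ± 0.15). Ddit4, an inhibitor of mTORC1, had 28.4 and 26.1 FPKM in siFGFR1+HG and 34.8 and 34.2 in HG, and its fall (log2 -0.33 ± 0.07) was lost without siFGFR1+HG 2, HG 1 or HG 2.

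Respiratory chain genes were mostly not called. Of 58 tested nuclear subunits of oxidative phosphorylation 7 fell (3 without siFGFR1+HG 1, 2 without siFGFR1+HG 2), 0 rose and 51 were not called, with a median log2 of -0.08. These are short genes, with a median length of 794 bases, and 4 fell with the length trend removed. Cox5a, a subunit of cytochrome oxidase, had 137 and 130.1 FPKM in siFGFR1+HG, 170.0 and 171 in HG and 155 and 144 in Ctrl (log2 -0.34 ± 0.05). Of the 13 protein-coding genes of the mitochondrial genome 2 rose (1 without siFGFR1+HG 2 or HG 1) and 0 fell. Over all tested genes 14.1% were higher and 15.9% lower. Mt-nd5, a subunit of complex I, had 959.5 and 1087 FPKM in siFGFR1+HG, 796 and 783 in HG and 961 and 936 in Ctrl (log2 0.39 ± 0.06).

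Genes of amino acid stress were higher in part. In the ATF4 list 12 of 25 rose (10 to 13 with any 1 library left out) and 0 fell (median log2 0.22). Slc1a4, an amino acid exchanger, had 55.4 and 55.1 FPKM in siFGFR1+HG, 37.1 and 35.6 in HG and 42.6 and 43.1 in Ctrl and rose (log2 0.62 ± 0.04). Slc38a2, a sodium-coupled amino acid transporter, had 186 and 189.6 FPKM in siFGFR1+HG, 149 and 147 in HG and 134 and 133 in Ctrl (log2 0.35 ± 0.03). Chac1, which degrades glutathione, had 41.9 and 45.1 FPKM in siFGFR1+HG, 31.3 and 32.0 in HG and 27.9 and 27.2 in Ctrl (log2 0.47 ± 0.05). Both were highest in siFGFR1+HG and lowest in Ctrl. Vldlr, a lipoprotein receptor counted in the ATF4 and sterol lists, had 112 and 113 FPKM in siFGFR1+HG, 75.8 and 69.8 in HG and 79.1 and 77.4 in Ctrl (log2 0.64 ± 0.05).

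In the heat shock list 13 of 23 fell (10 to 13 with any 1 library left out) and 2 rose (1 with any 1 library left out), with a median log2 of -0.23. Hsp90aa1, the inducible HSP90, had 152 and 159 FPKM in siFGFR1+HG, 203 and 208 in HG and 226 and 228 in Ctrl (log2 -0.39 ± 0.03). Hsph1, an HSP110 chaperone, had 102 and 103 FPKM in siFGFR1+HG, 134 and 137 in HG and 139.5 and 146 in Ctrl (log2 -0.39 ± 0.03). Among chaperones of the endoplasmic reticulum 5 of 27 were higher and 5 lower (2 without siFGFR1+HG 1, siFGFR1+HG 2 or HG 2, and 3 without HG 1), near the shares over all tested genes (14.1% higher and 15.9% lower). Herpud1, which acts in degradation from the endoplasmic reticulum, rose (log2 0.43 ± 0.06), and Creld2 fell (log2 -0.51 ± 0.06). Of 18 tested aminoacyl-tRNA synthetases 4 rose and 3 fell (1 without HG 2), all by under 0.3 on the log2 scale. These shares too were near those over all tested genes (14.1% higher and 15.9% lower).

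Genes that make and process RNA and ribosomes were lower by small amounts. Of 51 tested splicing factors 35 fell (25 to 35 with any 1 library left out) and 4 rose (2 without siFGFR1+HG 1), with a median log2 of -0.24. Hnrnpab had 129.8 and 132 FPKM in siFGFR1+HG, 221 and 193 in HG and 165 and 166 in Ctrl (log2 -0.65 ± 0.06). Srsf2, an SR protein, had 139 and 135 FPKM in siFGFR1+HG, 191 and 187 in HG and 185 and 186 in Ctrl (log2 -0.46 ± 0.03). Of 43 ribosome biogenesis genes 25 fell (18 to 25) and 0 rose. Ncl, nucleolin, had 379 and 379 FPKM in siFGFR1+HG, 487 and 499.6 in HG and 481 and 481 in Ctrl (log2 -0.37 ± 0.02). Fbl, the methyltransferase fibrillarin, had 73.3 and 73.7 FPKM in siFGFR1+HG, 96.4 and 102 in HG and 96.4 and 97.9 in Ctrl (log2 -0.42 ± 0.04). Of 65 cytosolic ribosomal protein genes 19 fell and 0 rose, with a median log2 of -0.09. That count was 12 without siFGFR1+HG 1, 9 without siFGFR1+HG 2, 11 without HG 2 and 12 without Ctrl 2, and 5 with the length trend removed, for genes with a median length of 721 bases.

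Protein breakdown showed opposite movements of proteasome and lysosome. Of 31 tested genes of the constitutive proteasome 24 fell and 0 rose, with a median log2 of -0.20. The count was 13 without siFGFR1+HG 1, 12 without siFGFR1+HG 2 and 14 with the length trend removed. Psma6, a core subunit, had 108 and 117 FPKM in siFGFR1+HG, 149 and 142 in HG and 122 and 119.7 in Ctrl (log2 -0.36 ± 0.05). Psmc4, an ATPase of the cap, had 99.2 and 102 FPKM in siFGFR1+HG, 126 and 124 in HG and 114 and 118 in Ctrl (log2 -0.30 ± 0.04). Of 46 lysosome and autophagy genes 23 rose (16 to 21 with any 1 library left out), 1 fell (0 without siFGFR1+HG 1, siFGFR1+HG 2 or HG 1) and 22 were not called, with a median log2 of 0.15. Ctsd, the protease cathepsin D, had 563 and 559.8 FPKM in siFGFR1+HG, 478 and 474 in HG and 470.0 and 464 in Ctrl (log2 0.25 ± 0.02). Ctsa, the protective protein of galactosidase, had 255 and 254 FPKM in siFGFR1+HG, 207 and 209 in HG and 199.6 and 205 in Ctrl (log2 0.31 ± 0.03). Lamp1, a lysosomal membrane protein, had 268 and 265 FPKM in siFGFR1+HG, 224 and 219 in HG and 219 and 229 in Ctrl (log2 0.28 ± 0.03).

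Of 15 tested collagen genes 11 rose. Col3a1, the chain of type III collagen, had 814 and 801 FPKM in siFGFR1+HG, 474 and 484 in HG and 586 and 527 in Ctrl and rose 1.70-fold (log2 0.77 ± 0.05). Col1a1, the main chain of type I collagen, had 4127 and 4074 FPKM in siFGFR1+HG, 3148 and 3107 in HG and 3432 and 3231 in Ctrl (log2 0.40 ± 0.03). Col5a1 had 158 and 157 FPKM in siFGFR1+HG, 116 and 119 in HG and 149 and 148 in Ctrl (log2 0.44 ± 0.02). Col16a1 had 37.5 and 39.8 FPKM in siFGFR1+HG, 24.3 and 25.4 in HG and 26.6 and 27.4 in Ctrl (log2 0.65 ± 0.05). In these 4 genes the HG libraries were the lowest of the 6. The 11 rises among collagen genes (9 to 11 with any 1 library left out) stood beside 2 falls (1 without siFGFR1+HG 1, HG 1 or HG 2), with a median log2 of 0.34. Collagen genes are long, with a median of 5769 bases, and 8 rose with the length trend removed.

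Among matrix glycoproteins Tnc had the largest change, a fall. Tnc encodes tenascin-C, a matrix protein induced by injury and inflammation, and had 5.41 and 5.01 FPKM in siFGFR1+HG, 17.3 and 18.0 in HG and 10.6 and 11.1 in Ctrl. It was lowest in siFGFR1+HG, below Ctrl as well, and fell 3.36-fold (log2 -1.75 ± 0.05, adjusted p = 7.31e-05). Nid2, a basement membrane protein, had 81.2 and 81.2 FPKM in siFGFR1+HG, 118 and 114 in HG and 85.7 and 90.7 in Ctrl and fell (log2 -0.50 ± 0.04). Fn1, fibronectin, had 1266 and 1279 FPKM in siFGFR1+HG, 1061 and 1047 in HG and 1299.8 and 1331 in Ctrl and rose (log2 0.29 ± 0.02). Thbs1, thrombospondin 1, had 2093 and 2125 FPKM in siFGFR1+HG, 1645 and 1548 in HG and 1704 and 1653 in Ctrl and rose (log2 0.41 ± 0.03). Of 29 tested members 14 rose (12 to 14 with any 1 library left out) and 4 fell (median log2 0.15). In the list of matrix proteases and crosslinking enzymes 11 of 35 rose (6 without siFGFR1+HG 1, siFGFR1+HG 2 or HG 1) and 6 fell. Loxl2, a lysyl oxidase that crosslinks collagen, had 55.2 and 56.5 FPKM in siFGFR1+HG, 37.1 and 38.6 in HG and 51.9 and 51.4 in Ctrl (log2 0.57 ± 0.04). Mmp28, the metalloprotease epilysin, had 7.18 and 6.40 FPKM in siFGFR1+HG, 3.19 and 3.16 in HG and 3.52 and 3.83 in Ctrl and rose 2.16-fold (log2 1.11 ± 0.14), while the aggrecanase gene Adamts1 fell (log2 -0.51 ± 0.04).

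Genes of the TGF-beta and BMP pathways rose more often than they fell. Bmpr2, a BMP receptor, had 13.5 and 13.9 FPKM in siFGFR1+HG, 8.56 and 9.09 in HG and 12.1 and 10.7 in Ctrl (log2 0.65 ± 0.07). Ski, a repressor of SMAD signalling, had 23.6 and 23.7 FPKM in siFGFR1+HG, 18.4 and 17.3 in HG and 22.2 and 22.5 in Ctrl (log2 0.42 ± 0.05). Of 35 tested members 16 rose (10 without siFGFR1+HG 2) and 3 fell (1 without siFGFR1+HG 1, HG 1 or Ctrl 2), with a median log2 of 0.22. In the list of YAP and TEAD targets 12 of 27 rose (7 without siFGFR1+HG 1, and 8 with the length trend removed) and 3 fell. Ccn1, a matricellular protein, had 172 and 168 FPKM in siFGFR1+HG, 135 and 129.8 in HG and 119 and 121 in Ctrl (log2 0.37 ± 0.03). Ptpn14, a phosphatase that restrains YAP, had 32.8 and 33.7 FPKM in siFGFR1+HG, 23.4 and 22.6 in HG and 31.0 and 33.1 in Ctrl (log2 0.55 ± 0.05).

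Of 25 tested Wnt and Notch genes 10 rose (6 without siFGFR1+HG 1 or 2) and 1 fell (0 without siFGFR1+HG 2, 2 without siFGFR1+HG 1 or with the length trend removed). Nkd2, an inhibitor of Wnt signalling, had 24.7 and 25.7 FPKM in siFGFR1+HG, 11.5 and 12.4 in HG and 14.8 and 15.2 in Ctrl and rose 2.13-fold (log2 1.09 ± 0.05). Wnt4 had 5.52 and 6.21 FPKM in siFGFR1+HG, 2.90 and 2.84 in HG and 4.22 and 3.78 in Ctrl and rose 2.06-fold (log2 1.04 ± 0.09). Jag1, a Notch ligand, had 12.4 and 13.3 FPKM in siFGFR1+HG, 7.35 and 7.86 in HG and 8.89 and 8.72 in Ctrl (log2 0.77 ± 0.06).

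Growth factor receptors other than the FGF receptors were higher in some cases. Met, the receptor of hepatocyte growth factor, had 10.8 and 10.9 FPKM in siFGFR1+HG, 6.94 and 6.50 in HG and 8.13 and 7.99 in Ctrl and rose 1.63-fold (log2 0.71 ± 0.05). Hbegf, an EGF receptor ligand, had 22.8 and 23.3 FPKM in siFGFR1+HG, 15.4 and 15.7 in HG and 16.3 and 17.1 in Ctrl (log2 0.58 ± 0.05), while Pdgfa, a PDGF chain, had 32.5 and 32.2 FPKM in siFGFR1+HG, 41.4 and 42.6 in HG and 31.5 and 33.6 in Ctrl and fell (log2 -0.36 ± 0.05). Of 24 tested members 9 rose (6 with the length trend removed) and 3 fell. In the insulin and IGF list 9 of 31 rose and 1 fell (0 without siFGFR1+HG 1 or HG 2, and 3 with the length trend removed). Irs2, an adaptor of the insulin receptor, had 15.7 and 16.2 FPKM in siFGFR1+HG, 10.8 and 10.3 in HG and 12.7 and 12.4 in Ctrl (log2 0.61 ± 0.04). Igf1r had 9.29 and 8.83 FPKM in siFGFR1+HG, 7.07 and 6.69 in HG and 8.87 and 8.62 in Ctrl (log2 0.41 ± 0.06). Rictor, a subunit of mTORC2, had 3.61 and 4.23 FPKM in siFGFR1+HG, 2.34 and 2.08 in HG and 3.26 and 3.21 in Ctrl (log2 0.84 ± 0.12). Pik3ip1, an inhibitor of PI3 kinase, had 15.5 and 19.3 FPKM in siFGFR1+HG, 9.44 and 7.20 in HG and 11.03 and 11.3 in Ctrl and rose 2.11-fold (log2 1.08 ± 0.15).

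**Figure D4:**
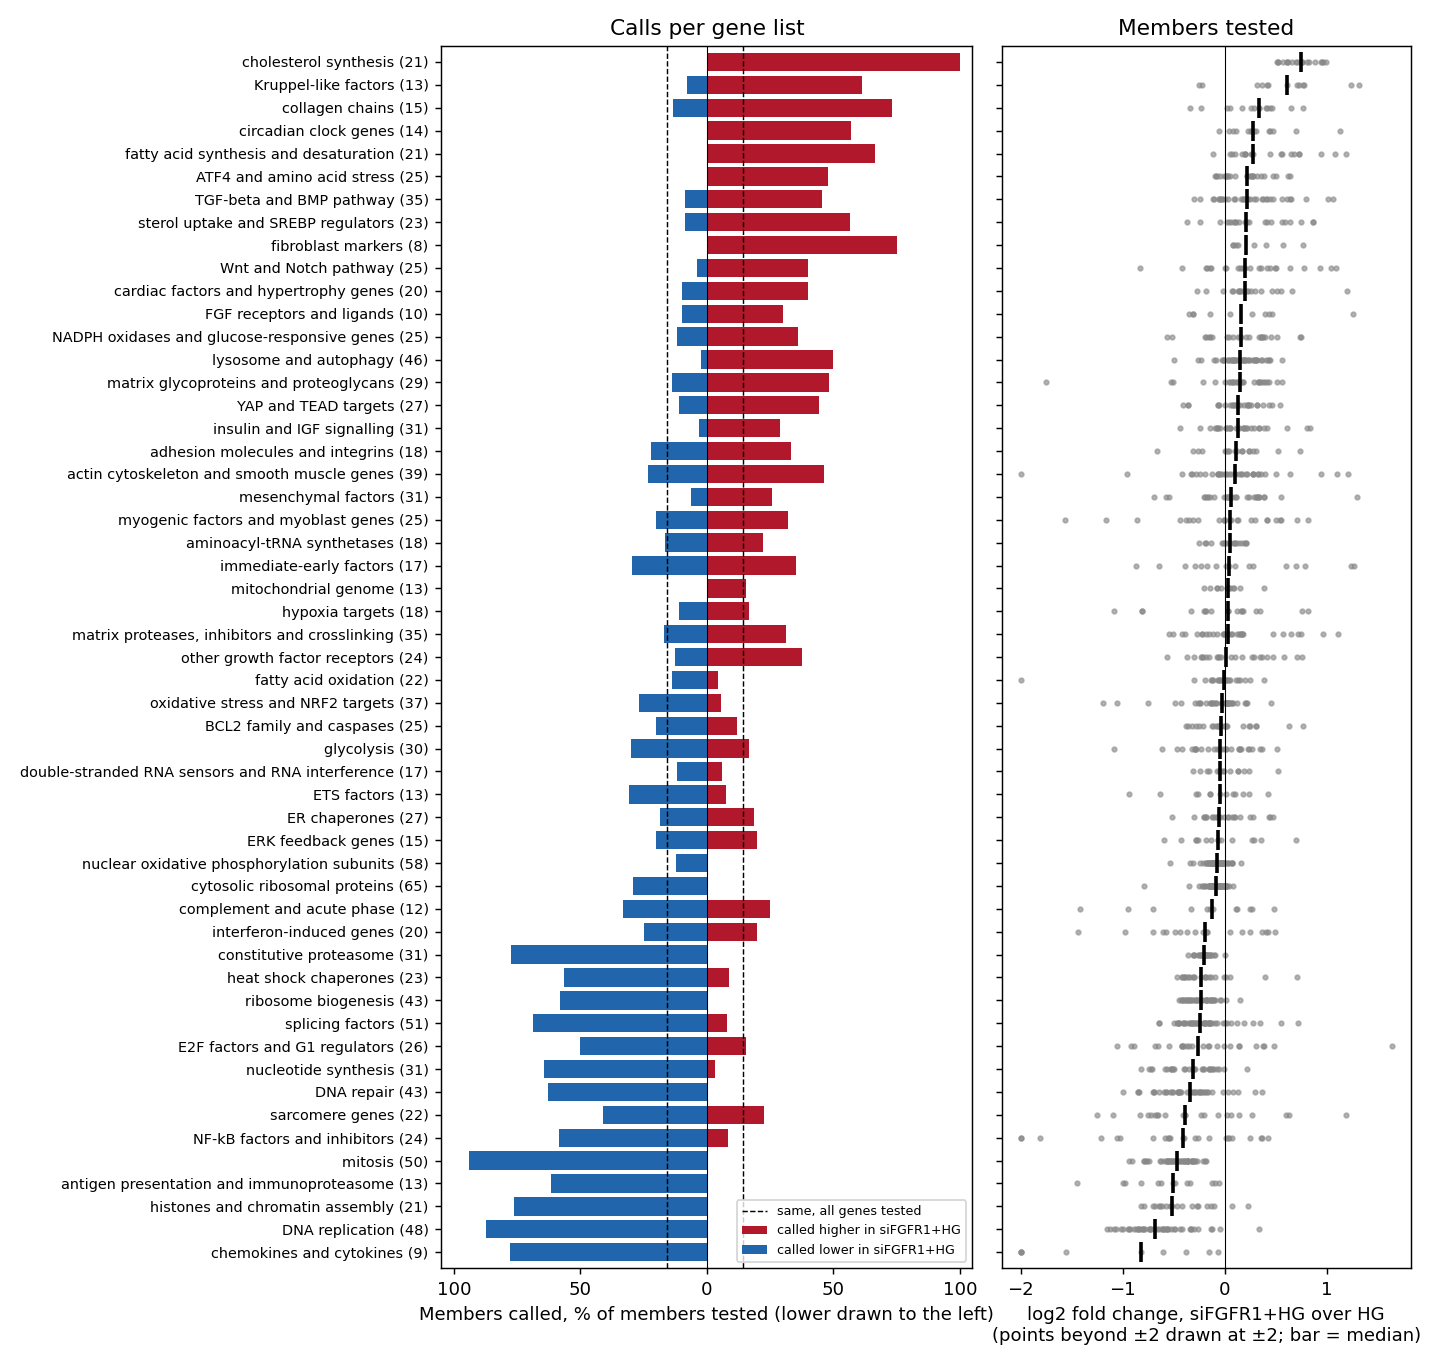
Left, share of the tested members of lists with at least 8 tested members called higher (right) or lower (left) in siFGFR1+HG against HG; dashed lines give the shares over all genes, 14.1% and 15.9%. Right, log2 fold change of each tested member (points) with the list's median (bar), from cholesterol synthesis at 0.74 at the top to chemokines and cytokines at -0.82 at the bottom.

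Muscle genes gave a mixed picture. Tnnt2, cardiac troponin T, had 75.7 and 75.7 FPKM in siFGFR1+HG, 125 and 127 in HG and 129 and 123 in Ctrl and fell 1.65-fold (log2 -0.72 ± 0.04). Myh3, the embryonic myosin heavy chain, had 4.35 and 4.64 FPKM in siFGFR1+HG, 8.44 and 7.73 in HG and 9.97 and 8.30 in Ctrl (log2 -0.83 ± 0.10), and Myh4 fell as well (log2 -0.58 ± 0.07). Atp2a2, the calcium pump SERCA2, had 90.7 and 91.4 FPKM in siFGFR1+HG, 77.5 and 75.6 in HG and 80.5 and 81.5 in Ctrl and rose (log2 0.26 ± 0.03). Atp2a3, a related pump, had 2.08 and 2.02 FPKM in siFGFR1+HG, 5.20 and 5.01 in HG and 3.30 and 2.92 in Ctrl and fell 2.46-fold (log2 -1.301 ± 0.10). Of 22 tested sarcomere genes 9 fell (5 without HG 1, and 7 with the length trend removed), 5 rose and 8 were not called, with a median log2 of -0.39.

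Myoblast genes had 8 rises (4 without siFGFR1+HG 1, siFGFR1+HG 2 or HG 2) and 5 falls among 25. Dmd, dystrophin, had 3.06 and 3.42 FPKM in siFGFR1+HG, 2.04 and 1.96 in HG and 2.76 and 2.53 in Ctrl and rose (log2 0.71 ± 0.08), while Vgll3, a TEAD cofactor, had 52.2 and 53.01 FPKM in siFGFR1+HG, 69.9 and 68.0 in HG and 55.0 and 57.4 in Ctrl and fell (log2 -0.38 ± 0.04). Myod1, the master factor of myoblasts, had 62.9 and 63.0 FPKM in siFGFR1+HG, 67.4 and 64.8 in HG and 64.0 and 66.3 in Ctrl. In the cardiac and hypertrophy list 8 of 20 rose and 2 fell (median log2 0.20). Npr3, the clearance receptor of natriuretic peptides, had 24.6 and 28.1 FPKM in siFGFR1+HG, 12.3 and 10.96 in HG and 16.1 and 15.3 in Ctrl and rose 2.29-fold (log2 1.19 ± 0.09). Hdac5, a deacetylase that restrains hypertrophic genes, had 33.6 and 33.9 FPKM in siFGFR1+HG, 24.3 and 23.4 in HG and 24.9 and 23.7 in Ctrl (log2 0.51 ± 0.04).

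Actin cytoskeleton and smooth muscle genes had 18 rises (14 with the length trend removed) and 9 falls (6 with it removed) among 39. Flnc, filamin C, had 113 and 111 FPKM in siFGFR1+HG, 73.5 and 71.5 in HG and 109 and 109 in Ctrl and rose (log2 0.64 ± 0.03). Lmod1, a leiomodin of smooth muscle, had 14.9 and 13.5 FPKM in siFGFR1+HG, 7.11 and 7.75 in HG and 11.4 and 10.1 in Ctrl (log2 0.95 ± 0.08). Synpo, an actin-bundling protein, had 6.99 and 6.15 FPKM in siFGFR1+HG, 3.16 and 2.58 in HG and 4.59 and 3.92 in Ctrl and rose 2.31-fold (log2 1.21 ± 0.15). Myh11, smooth muscle myosin, had 1.05 and 0.738 FPKM in siFGFR1+HG, 3.87 and 3.72 in HG and 1.16 and 1.20 in Ctrl and fell 4.19-fold (log2 -2.07 ± 0.18).

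Among mesenchymal factors 8 of 31 rose (4 without siFGFR1+HG 1 or HG 2, and 5 without siFGFR1+HG 2) and 2 fell. Prrx2, a homeobox factor of mesenchyme, had 23.2 and 20.3 FPKM in siFGFR1+HG, 7.74 and 10.2 in HG and 10.6 and 9.96 in Ctrl and rose 2.45-fold (log2 1.29 ± 0.15). The 2 that fell were Runx1, with 25.8 and 25.3 FPKM in siFGFR1+HG, 42.0 and 41.5 in HG and 35.7 and 34.8 in Ctrl (log2 -0.69 ± 0.04), and Sox9, with 10.6 and 10.1 FPKM in siFGFR1+HG, 15.2 and 15.2 in HG and 12.4 and 12.7 in Ctrl (log2 -0.54 ± 0.05). Circadian clock genes had 8 rises (4 without siFGFR1+HG 2 or HG 1, and 5 without HG 2) and 0 falls among 14. Per3 had 3.79 and 3.33 FPKM in siFGFR1+HG, 2.09 and 2.34 in HG and 2.90 and 2.99 in Ctrl (log2 0.70 ± 0.10). Tef, an output factor of the clock, had 8.27 and 8.99 FPKM in siFGFR1+HG, 6.27 and 6.53 in HG and 7.06 and 7.42 in Ctrl (log2 0.44 ± 0.07).

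Among the remaining genes with the largest changes, Pigc, an enzyme of GPI anchor synthesis, had 24.0 and 26.5 FPKM in siFGFR1+HG, 9.88 and 10.4 in HG and 26.2 and 25.1 in Ctrl. It was low only in HG and rose 2.51-fold (log2 1.33 ± 0.07). Lpp, a LIM protein of focal adhesions, had 7.28 and 8.07 FPKM in siFGFR1+HG, 4.07 and 3.16 in HG and 8.59 and 7.04 in Ctrl and rose 2.14-fold (log2 1.10 ± 0.17). Soga1 had 5.58 and 5.50 FPKM in siFGFR1+HG, 2.12 and 2.51 in HG and 5.31 and 4.62 in Ctrl (log2 1.27 ± 0.12). Rtn3, a reticulon that shapes the endoplasmic reticulum, had 19.8 and 18.7 FPKM in siFGFR1+HG, 46.6 and 49.2 in HG and 41.3 and 43.1 in Ctrl. Here siFGFR1+HG stood below both HG and Ctrl, and Rtn3 fell 2.47-fold (log2 -1.302 ± 0.05, adjusted p = 7.31e-05).

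Among the 15 largest rises and 15 largest falls, 3 genes besides Fgf18 rested on few libraries. Rn7sl1, a small cytoplasmic RNA, had 22.8 and 15.8 FPKM in siFGFR1+HG, 8.54 and 10.02 in HG and 4.404 and 3.20 in Ctrl, and its rise (log2 1.06 ± 0.27) was lost without siFGFR1+HG 1, HG 1 or HG 2 and with limma on log2(FPKM + 0.1). Ppidl1 had 2.58 and 1.27 FPKM in siFGFR1+HG, 5.19 and 4.86 in HG and 4.18 and 2.42 in Ctrl, and its fall (log2 -1.37 ± 0.39) was lost without siFGFR1+HG 2, HG 1 or HG 2, with limma on log2(FPKM + 1) or log2(FPKM + 0.1), and with the length trend removed. Xlr3a was listed at 0 in both siFGFR1+HG libraries, at 9.97 and 13.8 FPKM in HG, and at 0 in Ctrl 1 and 5.80 in Ctrl 2. Its call was lost without any 1 of the siFGFR1+HG or HG libraries, with limma-voom, with limma on log2(FPKM + 0.1), with the replicate block and with the length trend removed, and the fitted fold has no bound.

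Markers of the labelled cells were present in part. Besides Myod1, the myogenic factor Myog had 16.1 and 16.9 FPKM in siFGFR1+HG, 21.9 and 23.4 in HG and 25.3 and 27.4 in Ctrl, and the myoblast cadherin Cdh15 had 129 and 126 FPKM in siFGFR1+HG, 116 and 118 in HG and 138 and 139 in Ctrl. Des had 4.25 and 4.67 FPKM in siFGFR1+HG, 5.29 and 5.54 in HG and 7.80 and 7.40 in Ctrl. In Myog and Des both siFGFR1+HG libraries lay below every HG and Ctrl library, while in Cdh15 they lay between HG and Ctrl. A lack of overlap between siFGFR1+HG and HG was found in 66.1% of all tested genes. Chrna1 was below 1 FPKM and Myf5 at 0 counts in all libraries. The cardiomyocyte genes Nppa, Nppb, Myh6 and Actn2 were at or near 0, whereas Tnnt2, given above, was abundant. The heart factors Gata4 and Nkx2-5 were present at low levels. Gata4 had 4.85 and 4.85 FPKM in siFGFR1+HG, 4.80 and 4.03 in HG and 3.83 and 3.99 in Ctrl. Nkx2-5 had 5.40 and 4.65 FPKM in siFGFR1+HG, 5.25 and 4.37 in HG and 5.24 and 4.54 in Ctrl. Of 19 macrophage markers 3 were tested and 0 called. The list summed to 22.7 and 20.5 CPM in siFGFR1+HG, 24.6 and 20.9 in HG and 19.9 and 20.9 in Ctrl. Ptprc was at 0 counts throughout, and the tested Cd68 and Fcer1g had at most 1.94 FPKM in any library. Cd14 was expressed, with 11.4 and 10.1 FPKM in siFGFR1+HG, 11.3 and 9.07 in HG and 8.97 and 9.19 in Ctrl. Of 15 matched endothelial markers 2 were tested and 0 called. The list summed to 65.3 and 57.3 CPM in siFGFR1+HG, 66.0 and 61.7 in HG and 65.2 and 61.6 in Ctrl. Cdh5 was at 0, whereas both tested members were expressed. Egfl7 had 14.2 and 12.4 FPKM in siFGFR1+HG, 13.99 and 12.97 in HG and 12.8 and 10.4 in Ctrl. Flt1 had 5.92 and 5.07 FPKM in siFGFR1+HG, 5.88 and 5.61 in HG and 5.83 and 5.78 in Ctrl.

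Of 16 epithelial markers 2 were tested and 1 fell. The list summed to 99.7 and 106 CPM in siFGFR1+HG, 184 and 173 in HG and 178 and 183 in Ctrl, and Epcam was at 0 counts throughout. Krt7, a keratin of simple epithelia, had 28.5 and 30.1 FPKM in siFGFR1+HG, 65.6 and 62.2 in HG and 57.0 and 59.8 in Ctrl and fell 2.16-fold (log2 -1.11 ± 0.05). Krt8, the other tested member, had 18.3 and 19.6 FPKM in siFGFR1+HG, 21.3 and 19.6 in HG and 26.1 and 25.7 in Ctrl. It was not called (log2 -0.10 ± 0.06). Of 8 tested fibroblast markers 6 rose (4 or 5 with any 1 library left out) and 0 fell (median log2 0.21). These include Col1a1 and Col3a1, and the list summed to 31504 and 31427 CPM in siFGFR1+HG, 23641 and 23386 in HG, and 26415 and 24923 in Ctrl. Ddr2, a collagen receptor, had 33.6 and 36.5 FPKM in siFGFR1+HG, 23.6 and 24.1 in HG and 28.5 and 27.4 in Ctrl (log2 0.57 ± 0.05). Pdgfrb had 50.7 and 53.5 FPKM in siFGFR1+HG, 43.6 and 42.3 in HG and 52.9 and 52.3 in Ctrl (log2 0.29 ± 0.04). The part of such cells in the result was not tested.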

How the data were processed

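The deposited table gives, per the file headers, a count and an FPKM value for each gene and library. The submitters' processing notes name fastp, HISAT2, StringTie and the build GRCh38, without versions. The identifiers are rat identifiers, so the build is unsure and coordinates are given as deposited. The authors' FPKM values scale counts to gene length and library size, and 0.0001 stands for a count of 0. Counts, which are not scaled between libraries, were tested in edgeR 4.0.16 under R 4.3.3 with TMM scaling factors of 0.994 to 1.009 and 1 mean per group over all 6 libraries (3 residual degrees of freedom). The median SE of a log2 fold change was 0.09 at this depth. Each SE is the absolute log2 fold change divided by the square root of the F statistic.

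In total 57 lists with 1833 entries were matched, 1735 by name and 32 by RefSeq synonym, and 66 entries had no row of their own. Named genes are the 15 largest rises and 15 largest falls among called genes that averaged 5 FPKM or more in 1 of the groups, with no overlap of libraries and a proper symbol on 1 row, up to 4 members per list with the smallest p, and Fgfr1 to Fgfr4. Another 1556 names are on several rows and could not be among these largest changes. The members, lists and tests were chosen with earlier results of these data known. The labels do not tell whether replicate numbers pair the samples, and the fit did not pair them. Same-numbered libraries of siFGFR1+HG and HG had a correlation of deviations of -0.0896. With 2 libraries per group this value cannot decide whether they are paired. Alternatives used limma 3.58.1 and DESeq2 1.42.0, other scalings and filters, single libraries left out, and, added after seeing the data, a fit with the length trend removed. Gene length was read from the ratio of counts to FPKM. The pipeline was tested on simulated data. A comparison of HG with Ctrl would share the HG libraries, so its fold changes are not related to those given. Ctrl levels are only set beside the others. For genes chosen by a large gap from HG, a gap between Ctrl and HG is partly built in. Values of a few named genes and 1 list are not reported here.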

Additional observations from a re-analysis of the deposited data

How the results depend on the processing

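Every gene named by the rule and called kept its direction under all alternatives that tested it, 18 for most. Of 225 named genes that were called, 208 kept the call throughout and 17 lost it at least once. Counts of all calls ran from 2293 to 3247 with any 1 library left out, and of those at least 2-fold from 145 to 195. With 1 library left in an arm, it was assumed to vary like the other groups. Other settings gave 2748 calls with limma on log2(FPKM + 0.1), 2960 with limma on log2(FPKM + 1) and 4349 with DESeq2, which left 475 adjusted p-values open. The count at least 2-fold different was 71 with limma on log2(FPKM + 1), 280 with no FPKM filter and 75 with at least 5 FPKM in 2 libraries. The cause was not tested, apart from the pseudocount, which shrinks changes of low genes, and the filters, which change the genes tested. Upper-quartile factors gave 53.4% of calls as higher, where the fit in the report gave 47.0%. The fit with the replicate number as a block (replicate block) gave 3253 calls, and 165 at least 2-fold. Among named genes the sign turned in 4, which were not called. With any 1 library left out, Cd14 ran from -0.061 (without HG 2) to 0.26, Fcer1g from -0.53 (without HG 2) to 2.36, Flt1 from -0.17 to 0.045 (without siFGFR1+HG 2) and Egfl7 from -0.11 to 0.077 (without siFGFR1+HG 2). Egfl7 was at 0.000396 with RLE factors, 0.0182 with upper-quartile factors, 0.000671 with DESeq2, 0.00619 with at least 5 FPKM, 0.00534 with only the 4 libraries, 0.0498 without HG 1 and 0.0594 with the length trend removed, all on the log2 scale. With the length trend removed 3270 genes were called, 2935 of them shared with the 3661 called, 4 of these with the opposite sign. Of 52 list counts of 5 or more, 21 moved by over 1.5 times with some library left out. Fgfr1 had counts of 4 or fewer, which allow no fold.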

Other observations

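Outside the lists and the named genes, 80 called genes with at least 5 FPKM differed by at least 0.75 on the log2 scale, 41 higher and 39 lower in siFGFR1+HG. This rule was set, and the genes below were chosen, after their values were seen. Cavin4, a muscle caveolae protein, had 16.7 and 15.9 FPKM in siFGFR1+HG, 8.14 and 8.34 in HG and 10.1 and 10.1 in Ctrl (log2 0.996 ± 0.05). Idh1, the cytosolic NADPH-making isocitrate dehydrogenase, had 63.1 and 62.1 FPKM in siFGFR1+HG, 36.7 and 33.9 in HG and 37.4 and 39.0 in Ctrl (log2 0.84 ± 0.05). Tp53inp2, an autophagy factor, had 40.5 and 39.7 FPKM in siFGFR1+HG, 21.5 and 23.0 in HG and 22.05 and 21.2 in Ctrl (log2 0.86 ± 0.05). All 3 rose, and their siFGFR1+HG libraries stood above both HG and Ctrl. Sema3d, a secreted guidance cue, rose likewise, with 15.3 and 16.1 FPKM in siFGFR1+HG, 7.97 and 7.82 in HG and 10.3 and 10.1 in Ctrl (log2 1.01 ± 0.05).

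Among those that fell, Pclaf, a PCNA partner, had 47.6 and 45.8 FPKM in siFGFR1+HG, 96.5 and 91.6 in HG and 104 and 104 in Ctrl (log2 -0.997 ± 0.06), and Ckap2, a spindle protein, had 24.6 and 23.4 FPKM in siFGFR1+HG, 46.9 and 42.9 in HG and 45.5 and 45.6 in Ctrl (log2 -0.89 ± 0.05). Errfi1, a feedback inhibitor of the EGF receptor, had 13.9 and 12.3 FPKM in siFGFR1+HG, 26.2 and 25.9 in HG and 25.8 and 26.8 in Ctrl (log2 -0.98 ± 0.06). In these 3 genes siFGFR1+HG lay below both HG and Ctrl. A different pattern was seen in Angpt1, a ligand of the TIE2 receptor, with 11.1 and 11.7 FPKM in siFGFR1+HG, 21.7 and 21.9 in HG and 12.996 and 12.3 in Ctrl (log2 -0.92 ± 0.06), and in Ifitm3, an interferon-induced membrane protein, with 89.0 and 97.6 FPKM in siFGFR1+HG, 159.9 and 169.6 in HG and 91.6 and 87.5 in Ctrl (log2 -0.81 ± 0.06), where HG alone was high. Fgfr1op, a centrosomal gene distinct from Fgfr1 despite its name, had 6.23 and 6.47 FPKM in siFGFR1+HG, 13.4 and 11.1 in HG and 6.05 and 6.31 in Ctrl and fell (log2 -0.93 ± 0.10). The adjusted p-values of the genes in this section, from the quasi-likelihood test of edgeR, Benjamini-Hochberg adjusted over all tested genes, were 0.000166 to 0.00134.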
